A study of Ovis aries with 8 samples.

Results

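ATP5MC1 and ATP5MC2 encode the c subunit of the mitochondrial ATP synthase, and their transcripts were followed in carotid arteries of fetal sheep. They were taken as every non-control probe whose annotation names either gene, by its current symbol, its older symbol (ATP5G1, ATP5G2) or its locus number. This gave 5 of 15008 probes and 2 of 713 named genes. ATP5MC1, listed on the array as LOC443410, had 4 probes, and ATP5MC2, listed as LOC443542, had 1. Each probe had 1 spot per array, and none of these spots was saturated or marked as an outlier. The pair of genes was picked out because earlier results showed both lower under hypoxia, so their difference between the groups is given here as a description, with no test.

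One single-colour Agilent ovine array was used per fetus, with 4 fetuses in each group, all sampled at gestation day 140. The hypoxia group came from ewes taken to an altitude of 3801 m at gestation day 30 and kept there until day 135; the sample titles put this at 110 days. The normoxia group came from ewes that stayed at a ranch at 300 m. Ewes of both groups ate alfalfa pellets under natural daylight, no breed or drug is given, and fetuses are told apart only by a number from 1 to 4, so p-values measure only the spread between these samples.

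In the ATP synthase, c subunits form a ring in the inner mitochondrial membrane. Protons that the respiratory chain has pumped out flow back through this ring and turn it, and the rotation drives the catalytic head that makes ATP. ATP5MC1, ATP5MC2 and a further gene, ATP5MC3, encode precursors that differ in the presequence that directs import into mitochondria and yield the same mature peptide. In the wall of an artery, ATP made this way serves the ion pumps and the contractile apparatus of smooth muscle beside ATP from glycolysis.

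Levels are log2 values of the processed spot signal over the 75th percentile of its own array, so that 0 is the signal of the spot at that percentile. That percentile lay between 96.8 on hypoxia 1 and 1368 on normoxia 3, and 59.3% to 94.6% of spots were well above background. A feature was a probe well above background, by the scanner software's own flag, on at least 4 of 8 arrays, with the brightest probe standing for a named gene. Among 10904 features, limma called 0 (0.00%) different between hypoxia and normoxia at a Benjamini-Hochberg adjusted p under 0.05, and 402 (3.69%) had an unadjusted p under 0.05. The groups did not overlap for 291 features (2.67%), of which 105 (0.963% of all) were lower under hypoxia. The arrays lay on 3 slides, each with a scan of its own. Slide 1 carried 3 hypoxia arrays (1 to 3) beside normoxia 1, slide 2 paired hypoxia 4 with normoxia 2, and slide 3 held the remaining normoxia arrays, 3 and 4. The median feature differed by -0.02 between the groups.

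ATP5MC2 was a bright probe, at 61.9 to 824 times its local background. Its log2 levels were 6.01, 6.36, 5.72 and 6.60 on normoxia arrays 1 to 4. On hypoxia arrays 1 to 4 they were 5.78, 5.73, 4.93 and 6.002. Hypoxia 3 was the lowest array by a wide step and normoxia 4 the highest, and the groups overlapped only through normoxia 3, which lay below 3 of the 4 hypoxia arrays. The means were 6.17 ± 0.39 (SD, n = 4) under normoxia and 5.61 ± 0.47 (SD, n = 4) under hypoxia. The difference of -0.56 put the hypoxia level at 67.6% of the normoxia level, a difference of 1.48-fold, somewhat larger than the SD within either group. A more negative difference was found for 10.7% of all features.

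ATP5MC1 was represented by its brightest probe, A_70_P030367, which was designed to a RefSeq transcript and to an expressed sequence tag and lay at 22.5 to 399 times its local background. Its log2 levels were 4.73, 5.36, 4.71 and 5.88 on normoxia arrays 1 to 4. Under hypoxia they were 4.39, 4.93, 4.15 and 5.40, in the same order of arrays. Here the groups overlapped broadly, since hypoxia 4 stood above every normoxia array but normoxia 4. The means were 5.17 ± 0.56 (SD, n = 4) and 4.72 ± 0.56 (SD, n = 4). The difference of -0.45, or 73.1% of the normoxia level, was smaller than the SD within either group. A more negative difference was found for 15.8% of all features.

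The other bright ATP5MC1 probe, A_70_P030366, names the same RefSeq transcript. Its levels were 4.06, 4.55, 3.83 and 5.21 under normoxia and 3.35, 4.41, 3.69 and 4.80 under hypoxia. The group means were 4.41 ± 0.61 and 4.06 ± 0.66 (SD, n = 4 each), and their difference was -0.35. As with its neighbour, normoxia 4 and hypoxia 4 were the highest arrays of their groups. The 2 remaining ATP5MC1 probes name only the expressed sequence tag, whose strand is not given in the sources used here. Both were dim, at 1.45 to 4.85 times local background for A_70_P016886 and 1.47 to 5.64 times for A_70_P016887, and both were not well above background on hypoxia 1. Probe A_70_P016886 read -2.11 ± 0.18 under normoxia and -2.28 ± 0.48 under hypoxia (SD, n = 4 each), a difference of -0.17. Probe A_70_P016887 read -2.14 ± 0.43 and -2.19 ± 0.69 (SD, n = 4 each), a difference of -0.06. The dim pair therefore showed differences well inside the spread of the arrays, and its hypoxia arrays reached from the lowest to the highest level of all 8.

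**Figure D1:**
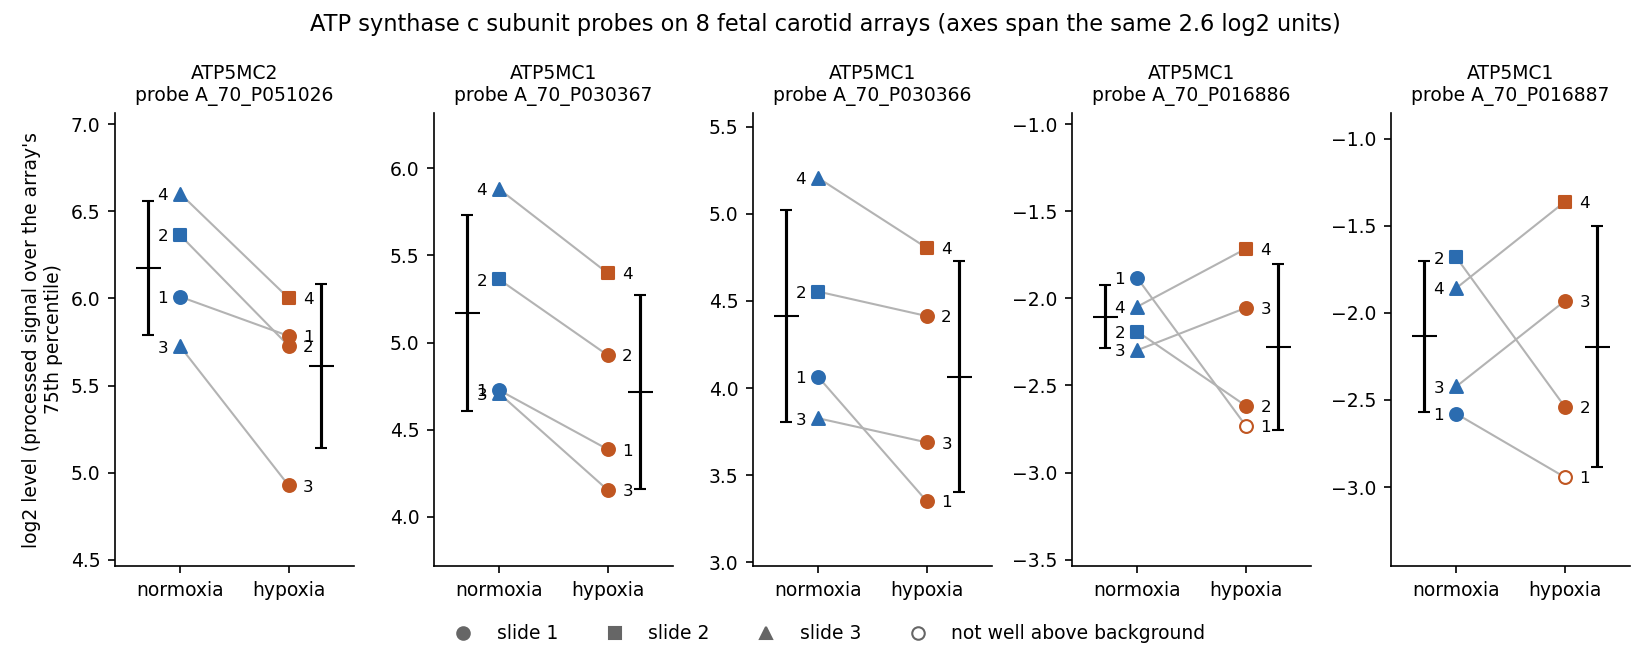
Log2 level (processed signal over the 75th percentile of the array) of each c subunit probe on 8 arrays, with 1 panel per probe and axes of equal span. Blue points are normoxia, orange points hypoxia, shapes mark slides, open points are not well above background, grey lines join arrays of the same number, and bars give the mean ± SD of 4 arrays. All 4 lines slope down for ATP5MC2 and for both bright ATP5MC1 probes, while lines of the dim probes run both ways.

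By the brightest probe of each gene, number 4 was the highest and number 3 the lowest array of either group. Across all features, arrays of the same number deviated from their group means together. Some arrays of different numbers did too: hypoxia 4 correlated at 0.801 with normoxia 2 and at 0.432 with normoxia 4. Hypoxia minus normoxia for ATP5MC2 was -0.23, -0.63, -0.80 and -0.60 in pairs 1 to 4. For ATP5MC1 it was -0.34, -0.43, -0.55 and -0.48. Both genes were thus lower under hypoxia in 4 of 4 pairs, as were 1149 of all 10904 features (10.5%). Since the pair of genes was chosen on this contrast, nothing is read from that count. The second bright ATP5MC1 probe was also lower in every pair, at -0.71, -0.14, -0.14 and -0.40, whereas each dim probe was lower in 2 of 4 pairs and higher in the other 2.

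The 4 pairs differed by similar amounts in ATP5MC1. The SD of its 4 pair differences was 0.09, against a median of 0.55 over all features, and 1.00% of features had a smaller one. For ATP5MC2 the SD was 0.24, with 12.3% of features below it. Mean levels of ATP5MC1 and ATP5MC2 were above those of 97.9% and 98.7% of features, and no comparison with features of like level was made. The evenness in ATP5MC1 belongs to its brightest probe, because the second bright ATP5MC1 probe had an SD of 0.27. The pairs themselves lay far apart in level. The mean of the normoxia and hypoxia array was 4.56, 5.14, 4.43 and 5.64 for ATP5MC1 in pairs 1 to 4, a range of 1.21 that matched the median over all features (1.21). For ATP5MC2 the pair means were 5.90, 6.05, 5.33 and 6.30, a range of 0.98. On this scale the range between numbers was larger than the difference between the groups for both genes, with number 4 highest and number 3 lowest in each.

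Within a slide the genes gave different values. ATP5MC2 was lower on each of the 4 hypoxia arrays than on the normoxia array of its own slide, by 0.23, 0.28 and 1.08 on slide 1 and by 0.36 on slide 2. The same held for 1845 features (16.9%). For ATP5MC1 only hypoxia 1 and hypoxia 3 were lower, at -0.34 and -0.57, while hypoxia 2 was 0.20 and hypoxia 4 was 0.04 above the normoxia array beside it. The difference of means within slide 1 was -0.53 for ATP5MC2 and -0.24 for ATP5MC1, and on slide 2, with 1 array of each group, it was -0.36 and 0.04. The second bright ATP5MC1 probe gave -0.25 on slide 1 and 0.25 on slide 2. With the slide as a block across all arrays, the difference was -0.46 for ATP5MC2 and -0.13 for ATP5MC1. Each slide with both groups held a single normoxia array, and the third held none from the hypoxia group. Both normoxia arrays on that slide count in the overall difference, and normoxia 4 carried the highest level of both genes.

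Single arrays weighed on the size of the difference. Without normoxia 4 the ATP5MC1 value was -0.22, without hypoxia 3 it was -0.26, and without hypoxia 4 it was -0.68. For ATP5MC2 the values ran from -0.34 without hypoxia 3 to -0.71 without normoxia 3. No leave-one-out value of either representative probe was above 0, and since both genes were chosen as lower, nothing is read from that. The second bright ATP5MC1 probe came to -0.08 without normoxia 4. Dim probe A_70_P016887 rose above 0 in some of these settings, up to 0.19 without hypoxia 1.

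The ratio of one c subunit gene to the other within an array does not depend on the scaling factor of that array, and only its change between arrays can be read. The log2 ratio of the ATP5MC1 probe over the ATP5MC2 probe was -1.28, -1.001, -1.02 and -0.72 on normoxia arrays 1 to 4. It was -1.40, -0.80, -0.77 and -0.60 on the hypoxia arrays. The group means were -1.01 ± 0.23 and -0.89 ± 0.35 (SD, n = 4 each), so the difference of 0.11 was smaller than either SD. The ratio was higher under hypoxia in 3 of 4 pairs and lower in pair 1. As with the levels, it varied more by number than by group, from a pair mean of -1.34 for number 1 to -0.66 for number 4. The ratio of the bright ATP5MC1 probes, A_70_P030366 over A_70_P030367, which name the same transcript, itself ran from -1.04 to -0.47, with group means of -0.76 ± 0.11 and -0.65 ± 0.26 (SD, n = 4 each) and a difference of 0.10. The ratio between the genes, which ran from -1.40 to -0.60, thus varied over a range not far from that between probes of 1 gene, and a difference between the genes cannot be told apart from one between probes.

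Both differences were below 0 under each way of putting the arrays on one scale, and their size varied. Quantile normalization gave -0.49 for ATP5MC2 and -0.35 for ATP5MC1, and cyclic loess gave -0.31 and -0.23. Centring each array on its median gave -0.74 and -0.63, beside a shift of -0.20 in the median of all features. Under quantile normalization and cyclic loess the spread between numbers shrank: pair means of ATP5MC2 ranged over 0.24 and 0.20, and those of ATP5MC1 over 0.56 and 0.67. Median centring widened those ranges to 1.92 and 2.33. In these 3 settings the representative probes of both genes were lower in 4 of 4 pairs, as were 11.4%, 12.5% and 16.1% of all features under quantile normalization, cyclic loess and median centring. The second bright ATP5MC1 probe was lower in 3 of 4 pairs under quantile normalization and in 2 of 4 under cyclic loess, where pairs 2 and 3 stood at 0.03 and 0.23.

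The normexp background model gave -0.83 for ATP5MC2 and -0.75 for ATP5MC1, but through 1 pair. Pair 1 stood at -3.005 and -3.13 in that order, pair 2 at -0.0025 and 0.19, pair 3 at -0.80 and -0.56, and pair 4 at 0.50 and 0.50. The model had raised the median spot on hypoxia 1 from 56.8 above local background to 924, on normoxia 2 from 107 to 703, and on normoxia 4 from 101 to 720, the model's offset of 50 included. On the other 5 arrays it raised the median by 17.7 to 45.1. The median of all features moved to -0.31 under this model.

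**Figure D2:**
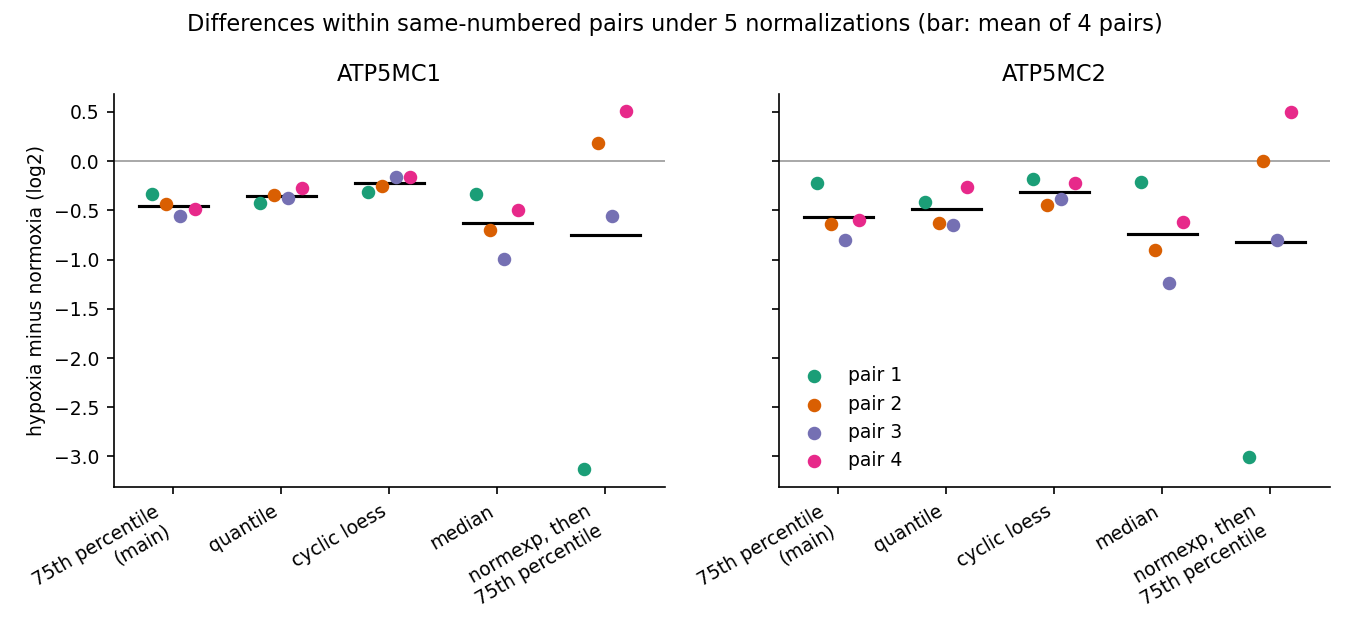
Hypoxia minus normoxia (log2) in the 4 same-numbered pairs for ATP5MC1 and ATP5MC2 under 5 normalizations, with points for pairs and a bar for their mean. All points lie below 0 under 75th percentile, quantile, cyclic loess and median scaling, most widely apart under median scaling (-1.23 to -0.22 for ATP5MC2), and they spread from -3.13 to 0.50 under normexp.

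The genes whose profile over the 8 arrays was most like that of each member were found by the root mean square (RMS) difference between log2 profiles, each centred on its own mean, among 551 other named genes. Every feature shares arrays and scaling with the members, and the group difference is part of the profile. For ATP5MC1 the nearest were CRYAB (a small heat shock protein), at an RMS difference of 0.12, UROD (an enzyme of heme synthesis) at 0.15, TIMP1 (an inhibitor of matrix metalloproteinases) at 0.17, PPIA (cyclophilin A) at 0.18 and LGALS1 (galectin-1) at 0.19. The median over all features was 0.86, and among 10903 features CRYAB ranked 10th and LGALS1 80th. These 5 were lower under hypoxia by 0.39 to 0.60, had their highest level on normoxia 4, and were low on hypoxia 1 and hypoxia 3. Their choice by profile favours such shared levels, so nothing is read from them.

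For ATP5MC2 the nearest were PRNP (the prion protein) at 0.17, PSME2 (a proteasome activator subunit) at 0.17, DYNLT3 (a dynein light chain) at 0.18, CENPB (a centromere protein) at 0.21 and PGD (an enzyme of the pentose phosphate pathway) at 0.22, against a median of 0.82 over all features. Among 10903 features PRNP ranked 67th and PGD 215th. These 5 all had their lowest level on hypoxia 3, as ATP5MC2 did, which their choice by profile favours. No gene appeared among the nearest 5 of both members. The members differed from each other by 0.26, which placed ATP5MC2 10th among named genes and 341st among 10903 features in likeness to ATP5MC1, and ATP5MC1 9th and 408th in likeness to ATP5MC2. By comparison, the second bright ATP5MC1 probe differed from the first by 0.18, and the dim probes by 0.51 and 0.47. When each group was centred on its own mean, which takes the group difference out, the same 5 genes led for ATP5MC1 and 4 of the 5 for ATP5MC2.

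**Figure D3:**
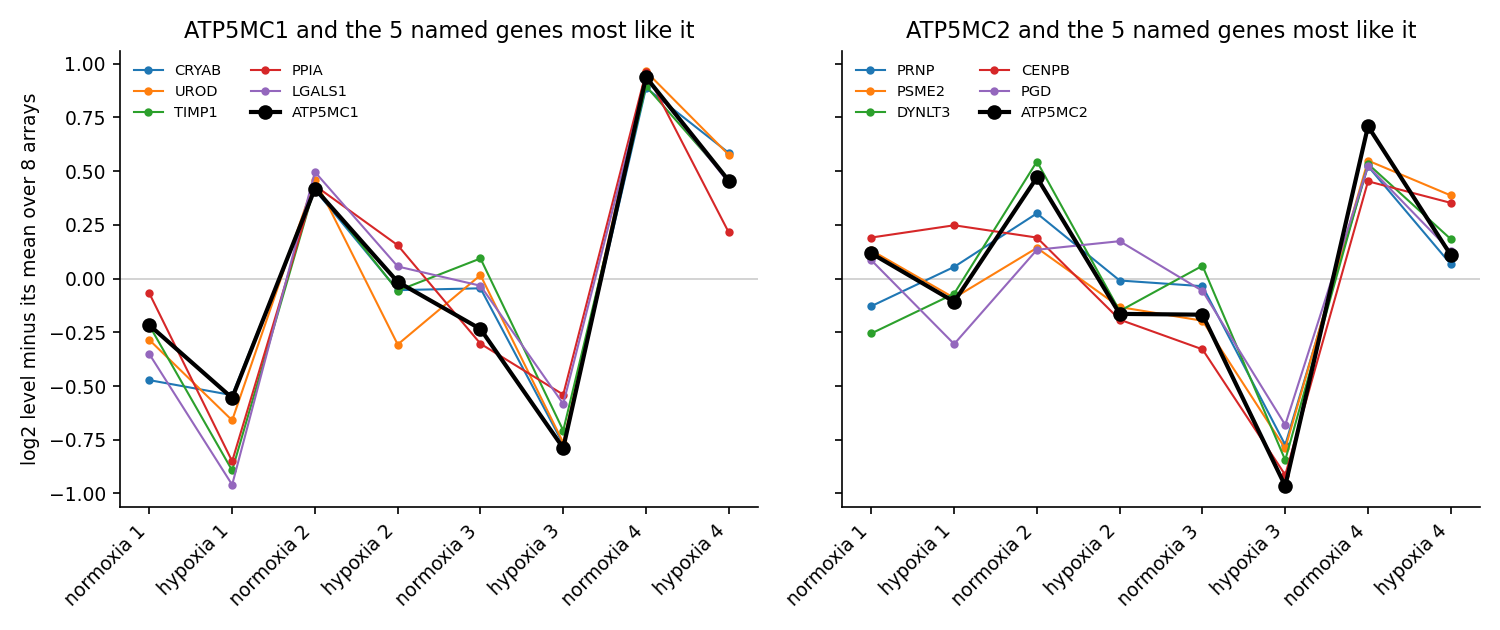
Log2 level minus the mean over 8 arrays for ATP5MC1 (left, black) and ATP5MC2 (right, black), each with the 5 named genes of the smallest RMS difference in colour; lines join arrays for legibility only. ATP5MC1 and its neighbours peak on normoxia 4, and ATP5MC2 and its neighbours have their lowest point on hypoxia 3.

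The rest of mitochondrial energy metabolism was described from 7 lists with 225 genes, of which 13 had a probe named here and 12 were measured. No probe was named for another ATP synthase subunit, for ATP5MC3, for the respiratory chain complexes, or for the citric acid cycle, so the members stand without their partner subunits. Of the 12 genes, 6 were higher and 6 lower under hypoxia, with a median of 0.02 against -0.02 over all features. By limma, 0 of 12 passed an adjusted p of 0.05 and 0 had an unadjusted p under 0.05, beside 3.69% of all features. Under normexp 11 were lower, as were 79.3% of all features, and with the slide as a block 10 were lower, beside 56.7% of all features. Over the alternatives, TSPO, TXN and GABPA stayed below 0 in each, and the sign of the other 9 changed in at least 1.

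Among proteins that handle the proton gradient or sit in mitochondrial membranes, the uncoupling protein UCP1 differed by -0.84 ± 1.81 (SE of the fit) and UCP3 by 0.55 ± 1.28. Both were dim, well above background on 5 and 4 arrays, and their spread covered either direction. TSPO, a protein of the outer membrane, differed by -0.22 ± 0.29. For fatty acid entry, the carnitine palmitoyltransferases CPT1A and CPT1B differed by 0.63 ± 0.93 and 0.14 ± 0.27. None of these differences exceeded its SE. UCP3 and CPT1A turned to -0.75 and -0.75 under normexp and to -0.79 and -0.11 with the slide as a block.

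Among regulators of mitochondrial gene expression, the coactivator PPARGC1A differed by 0.43 ± 1.16 (SE; -0.91 under normexp and -0.80 with the slide as a block), the nuclear respiratory factor NRF1 by -0.57 ± 1.60 and GABPA, which binds promoters of respiratory genes, by -0.10 ± 0.23. The PPARGC1A probe was well above background on 4 arrays. Other PPARGC1A probes, A_70_P049666 and A_70_P049667, were below the filter and differed by -0.86 and -0.002. The nuclear receptors PPARA and PPARG, which control fatty acid use, differed by 0.15 ± 0.46 and -0.28 ± 1.03. PRKAA2, a catalytic subunit of the energy sensor AMPK, was below the filter. SOD2, the superoxide dismutase of the mitochondrial matrix, differed by 0.30 ± 0.38, and by -0.05 without normoxia 1. The cytosolic thioredoxin TXN, which entered through the list of mitochondrial antioxidants and redox enzymes, differed by -0.36 ± 0.25 and was lower in 3 of 4 pairs. Its second probe differed by -0.15 and was lower in 2 of 4 pairs.

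The vacuolar ATPase, a proton pump of lysosomes and other acid compartments that spends ATP, has a membrane ring akin to that of the ATP synthase. ATP6V0C, the ring subunit of that pump, read 2.04, 2.21, 2.17 and 2.23 on normoxia arrays 1 to 4 and 1.84, 2.96, 2.82 and 2.56 on the hypoxia arrays. It was higher under hypoxia in 3 of 4 pairs, with a difference of 0.38 ± 0.29 (SE) that did not pass the test. Of the other measured subunits of the pump, ATP6V1B2 differed by 0.42 ± 0.36 and was higher in 4 of 4 pairs, as were 13.8% of all features. ATP6V1E1 differed by -0.07 ± 0.44. Without normoxia 1 the ATP6V1E1 value was -0.40, and with the slide as a block it was 0.56. With the 3 vacuolar genes counted in, 8 of 15 genes were higher and 7 lower, and the median was 0.14.

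**Figure D4:**
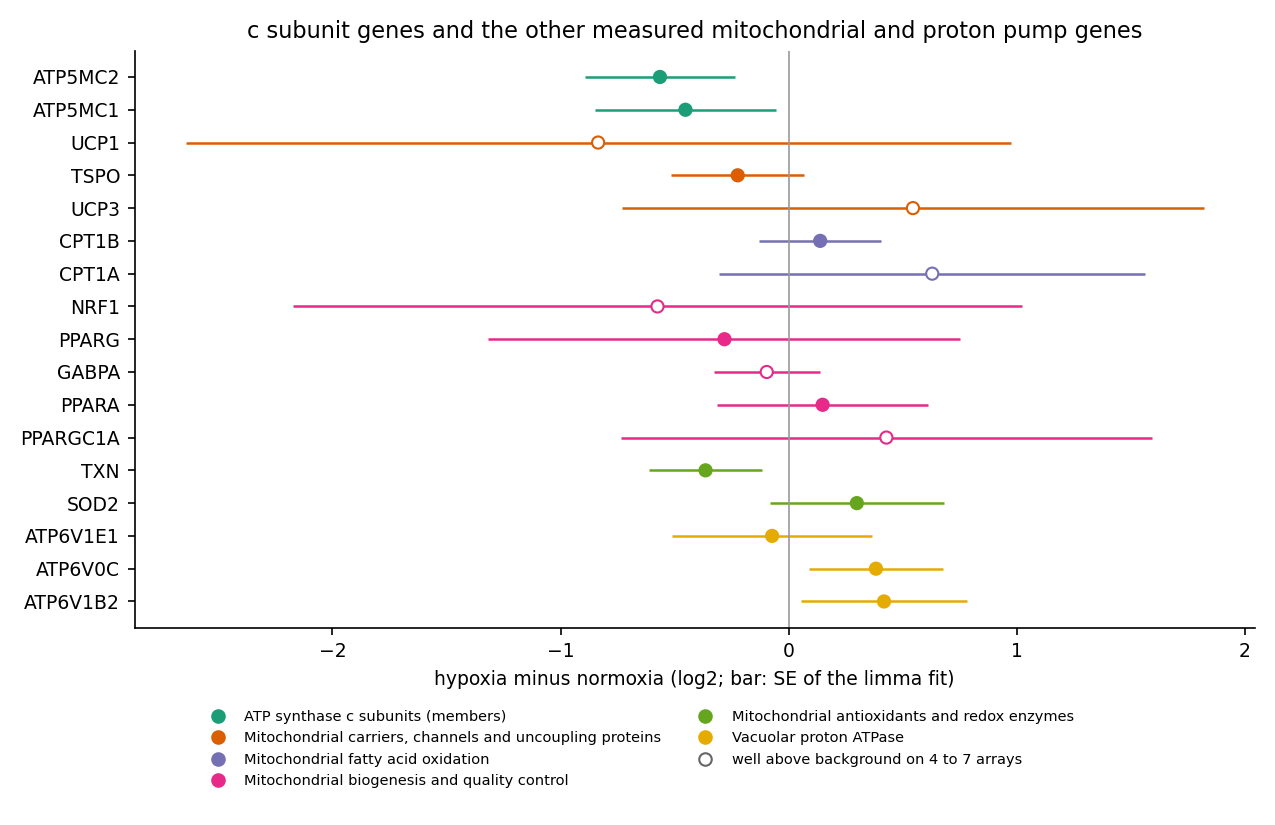
Hypoxia minus normoxia (log2) for ATP5MC1, ATP5MC2 and the 15 other measured genes of the lists, coloured by list, with bars for the standard error of the limma fit and open points for genes well above background on 4 to 7 arrays. The members lie at -0.45 and -0.56, and the other genes fall on both sides of 0.

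Arteries hold several cell types, so fewer cells of a type and less RNA per cell cannot be told apart. Of 14 smooth muscle markers 3 were named on the array, calponin (CNN1), MYL6 and MYLK, and all were well above background on all 8 arrays. Their summed level, on a linear scale relative to the 75th percentile, was 480, 819, 420 and 1196.5 on normoxia arrays 1 to 4 and 203, 696, 464 and 878 on hypoxia arrays 1 to 4. The sum, like both members, was highest on normoxia 4. Within each group it was higher on arrays 2 and 4 than on arrays 1 and 3. The same held for ATP5MC1, and for ATP5MC2 under normoxia. The median value of an array in the authors' table, a linear ratio to a value near the 75th percentile, was lower on arrays 2 and 4. On normoxia arrays 1 to 4 it was 0.328, 0.1315, 0.228 and 0.137. On hypoxia arrays 1 to 4 it was 0.326, 0.158, 0.308 and 0.141. The arrays thus also differed in the spread of their signal, and its part in the sum and the members was not tested. CNN1, MYLK and MYL6 differed by -0.62 ± 0.77, -0.60 ± 0.66 and -0.37 ± 0.47 (SE) between the groups, and no difference exceeded its SE. They were lower in 3, 2 and 4 of 4 pairs, and 10.5% of all features were lower in all 4. With the slide as a block the differences were -0.37, 0.11 and -0.03. The part of smooth muscle content in the values of the members was not tested.

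Marker sums of other cell types varied by array as well. Endothelial markers (5 of 10 on the array, 2 of them well above background on all arrays) summed to 0.42 to 1.58 under normoxia and 0.55 to 2.22 under hypoxia, and 3 of 4 measured ones were higher (median difference 0.96). Markers of adventitial fibroblasts (3 of 8) reached 178 on hypoxia 1 and stayed between 23.7 and 69.2 elsewhere. The brightest COL3A1 probe differed by 1.80 and was higher in 4 of 4 pairs, as were 13.8% of all features. Its other probes, A_70_P016306 and A_70_P016307, differed by 0.52 and 0.54, each higher in 3 of 4 pairs. COL1A1, well above background on 6 arrays, differed by 0.95 and DCN by -0.15. Leukocyte markers (8 of 15) lay between 2.20 and 4.16 under normoxia and 1.22 and 3.56 under hypoxia. On all 8 arrays 3 of them were well above background. All 7 measured ones were lower by their brightest probe, beside 51.8% of all features, with differences from -0.95 to -0.02. Of their other probes, A_70_P051226 of LYZ differed by 0.53 and A_70_P030287 of CD14 by 0.08, and the rest were lower. Erythroid markers (3 of 10, 1 well above background on all arrays) ran from 0.54 to 2.30 and from 0.84 to 2.17. Those of adipocytes (5 of 7, 2 well above background on all arrays) ran from 0.46 to 1.83 and from 0.17 to 1.77. All 4 measured adipocyte markers were lower, beside 51.8% of all features. Probes below the filter went the other way, LEP by 0.49 and LPL by 0.23 and 0.18. Those of skeletal and cardiac muscle (5 of 18, none well above background on all arrays) ran from 0.12 to 1.30 and from 0.08 to 1.00. Within each group the adipocyte and muscle sums were higher on arrays 1 and 3 than on 2 and 4. The leukocyte sum and the median value of an array in the authors' table had the same order, whose source was not tested. The only marker of thyroid and thymus on the array, TSHR, was below the filter, and no nerve marker was named. None of these markers passed an adjusted p of 0.05 by limma, and 1 leukocyte marker had an unadjusted p under 0.05. The part of these cell types in the c subunit values was not tested.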

How the data were processed

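Scanner files of 8 arrays, 1 per fetus, were used. The deposited intensity values came from Agilent Feature Extraction 9.5.3.1, per the file headers; the processed intensity is background-subtracted and detrended within an array and not scaled between arrays. The deposited flags (well above background, saturated, outlier) come from that software too. The authors also deposited a series table of a linear ratio, found from its values to be processed intensity over a scaling value near the 75th percentile of each array; the choice of that scale is not given in the sources used here. Adult arteries were not analysed here.

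Groups came from the maternal treatment in the labels. Control and outlier spots were dropped, log2 processed intensity minus the 75th percentile of each array was averaged per probe, and 72 probes without a value on some array were left out. No pseudocount was used. Genes were named through the annotation in the files and RefSeq names for 1245 of 15008 probes, 544 of them by RefSeq accession; no coordinates were used. All 10904 features (552 with a gene name) entered 1 fit of the 4 hypoxia and 4 normoxia arrays with limma 3.58.1 (lmFit, eBayes, Benjamini-Hochberg adjustment, R 4.3.3). On simulated data of 10904 features this fit recovered 21% of changes of 1.5 and 60% of changes of 3 on the log2 scale. The number of arrays limits the precision. Named genes were every member probe, every measured gene of the mitochondrial and vacuolar lists, the 5 named genes most like each member, and cell type markers. The members and lists were chosen with earlier results of these data known.

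Deviations from the group means, over all features, correlated at 0.819, 0.725, 0.582 and 0.432 between arrays of the same number, so numbers 1 to 4 were taken to pair the arrays. No label states what same-numbered arrays have in common, so this pairing rests on the values alone. Among arrays of different numbers on 1 slide, normoxia 2 and hypoxia 4 correlated at 0.801 and normoxia 1 and hypoxia 3 at 0.576. Normoxia 1 and hypoxia 2, also on 1 slide, stood at -0.638. Alternatives covered background correction, scaling, the filter on dim probes, outlier spots, the authors' table, array weights, the replicate number or slide as a block, and leaving out each array.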

Additional observations from a re-analysis of the deposited data

Results flagged for a closer look

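Of 68 sets of 4 arrays examined for an array that stands apart (each member probe, the measured genes of the mitochondrial and vacuolar lists, the genes most like each member, the 3 smooth muscle markers and the ratio of the members, in each group), 4 had one by Dixon's criterion, and chance alone gives about 5% of such sets. None was a c subunit probe, the nearest being ATP5MC2 under hypoxia at 0.745, where hypoxia 3 was low. PRNP, the named gene most like ATP5MC2 and picked for its profile, was low on hypoxia 3 as well (2.56, the other hypoxia arrays 3.32 to 3.40). Its gap was 0.910 of the range of the group. MYLK was high on normoxia 4 (7.54, the others 5.40 to 5.57), with a gap of 0.922. ATP6V1E1 was low on normoxia 1 (0.67, the others 1.94 to 2.02), with a gap of 0.943. SOD2 was also low on normoxia 1 (-1.38, the others -0.11 to 0.10), with a gap of 0.862.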

How the results depend on the processing

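Of 21 alternatives 18 could move the members' differences, which ran from -0.83 to -0.31 for ATP5MC2 and from -0.75 to 0.04 for ATP5MC1; since both genes were chosen as lower, their sign is no sign of stability. With the replicate number as a block, the differences were the same, -0.56 and -0.45, 0 features were called (smallest adjusted p 0.314 by limma; 1304 at an unadjusted p under 0.05), and the block changed no call. No alternative gave a called feature. Features whose groups did not overlap numbered 76 under normexp and 135 under median scaling; leaving out 1 array gave 337 to 818, where fewer arrays make non-overlap easier. ATP5MC2 ranked 63rd in likeness to ATP5MC1 under normexp, 220th under quantile normalization and 518th under cyclic loess. Under normexp, CPT1B, PPARA and GABPA differed by -0.25, -0.56 and -0.54, and with the slide as a block SOD2 differed by 0.84; UCP3, CPT1A and PPARGC1A, above 0 with the 75th percentile, were below 0 under both. The cause of these moves was not tested. Signal over background limits the dim ATP5MC1 probes.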
